A study of Mus musculus with 10 samples.

Results

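Cyclic nucleotide phosphodiesterases are the enzymes that hydrolyse cAMP and cGMP, and the transcripts of 10 of them were followed in interscapular brown adipose tissue (iBAT) of mice lacking the receptor tyrosine kinase AXL. The 10 genes were taken as a fixed list, not by their values: Pde3a, Pde3b, Pde4a, Pde4b, Pde4c, Pde4d, Pde2a, Pde7a, Pde8a and Pde10a, of 24 phosphodiesterase genes and 41249 gene identifiers in all. RNA was sequenced from whole iBAT of 5 Axl KO and 5 wild-type (WT) mice, 1 library per mouse. Axl KO mice carry a constitutive whole-body deletion made with a knockout-first cassette between exons 4 and 5 on a C57BL/6 background, so the gene was targeted in every cell type, and WT mice were littermates. All mice were males kept at room temperature on high-fat diet (HFD), which the sample records give as 24 weeks from an age of 6 to 8 weeks and the study's own text as slightly longer. The deletion is not restricted to adipocytes, and the tissue holds vessels, nerves, connective tissue and immune cells besides brown adipocytes.

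In brown adipocytes, noradrenaline acts through beta-adrenergic receptors and adenylyl cyclases to raise cAMP, which activates protein kinase A and with it lipolysis and heat production. Phosphodiesterases end this signal, and insulin is known to activate PDE3B through phosphorylation by AKT, which is one way in which insulin restrains lipolysis. The study's interest lay in how AXL, PI3K and AKT bear on the activity of PDE3 and PDE4 in brown adipocytes. Enzyme activity is set by phosphorylation and localization as well as by the amount of protein, and the data described here are transcript levels.

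Transcript levels are given in CPM, counts scaled to a library total of 1000000 after adjustment of that total by TMM normalization. Axl itself was measured at 0.438 to 2.01 CPM in Axl KO mice and at 38.3 to 52.4 CPM in WT mice, with 3 to 383 counts per mouse. Among 13739 genes tested, edgeR (quasi-likelihood test on counts, Benjamini-Hochberg adjustment, adjusted p under 0.05) called Axl alone, and DESeq2 called 9 genes. Library totals lay between 5431014 and 9580215 counts. The brown adipocyte markers were all measured, with a summed level of 8450 to 11647 CPM in Axl KO and 6557 to 8704 CPM in WT mice, and the 8 general adipocyte markers summed to 12786 to 15021 and 12891 to 14243 CPM. Skeletal muscle genes set 2 mice apart: the 11 muscle markers summed to 68.6 CPM in Axl KO replicate 1 and 16.7 CPM in Axl KO replicate 2, and to between 1521 and 9738 CPM in the other 8 mice.

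The 10 genes lie on 8 chromosomes of the mouse build GRCm38. The PDE3 genes, whose enzymes hydrolyse cAMP and are inhibited by cGMP, are Pde3a on chromosome 6, forward strand, from 141249269 to 141507448, and Pde3b on chromosome 7, forward strand, from 114415281 to 114539251. The PDE4 genes encode cAMP-specific enzymes that are the targets of rolipram and roflumilast. They are Pde4a on chromosome 9 from 21165714 to 21213248, Pde4b on chromosome 4 from 102087543 to 102607259, Pde4c on chromosome 8 from 70723720 to 70751186 and Pde4d on chromosome 13 from 108449948 to 109953461, all on the forward strand. Pde2a, whose enzyme hydrolyses cAMP and cGMP and is stimulated by cGMP, lies on chromosome 7 from 101421691 to 101512827, forward strand. Pde7a, on the reverse strand of chromosome 3 from 19223108 to 19311322, and Pde8a, on chromosome 7 from 81213596 to 81334533, forward strand, encode cAMP-specific enzymes that rolipram does not inhibit. Pde10a, on chromosome 17 from 8525372 to 8986648, forward strand, encodes an enzyme that acts on both nucleotides. Pde8a, Pde2a and Pde3b share their chromosome with Axl, at distances of 55.4, 75.6 and 88.6 Mb.

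Pde2a is the member whose counts cannot be taken at face value, and its exon junctions show why. GENCODE annotates a second gene on the same strand, Gm45837 (ENSMUSG00000030653), whose first exon lies upstream of Pde2a and whose other exons are those of Pde2a: 31 of its 32 exons are identical to a Pde2a exon, which makes up 95.6% of its exonic bases and 64.3% of those of Pde2a. The transcripts differ in the exon that is spliced to the first shared exon, chr7:101451402-101451468. Below, the last 15 bases of that preceding exon are in capitals and the first 15 bases of the shared exon in lower case, 5′ to 3′ on the forward strand of GRCm38.
Gm45837-201: GCTGACCCCCTTTCCgcggggccagcaggt
Pde2a-201: GCGACCGGCTGAGCCgcggggccagcaggt
Pde2a-204: CCACATTTGGGAACGgcggggccagcaggt
A read that lies within the shared exons can come from either gene. The counts deposited for the genes were nearly the same in every mouse, for example 465 on Pde2a and 472 on Gm45837 in Axl KO replicate 3, and 418 and 417 in WT replicate 5. The differences ran from -1 to 11 counts, where reads assigned at random to one gene or the other would differ with an SD of 20 to 30.6. The rows are as close as if reads on the shared exons had been counted on both genes, and how much of the Pde2a level belongs to Pde2a cannot be told from these tables. Exons of Pde3a and Pde7a are crossed by antisense genes with 31 and 3 counts over all mice, against 117 or more and 85 or more counts of the members in each mouse.

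**Figure D1:**
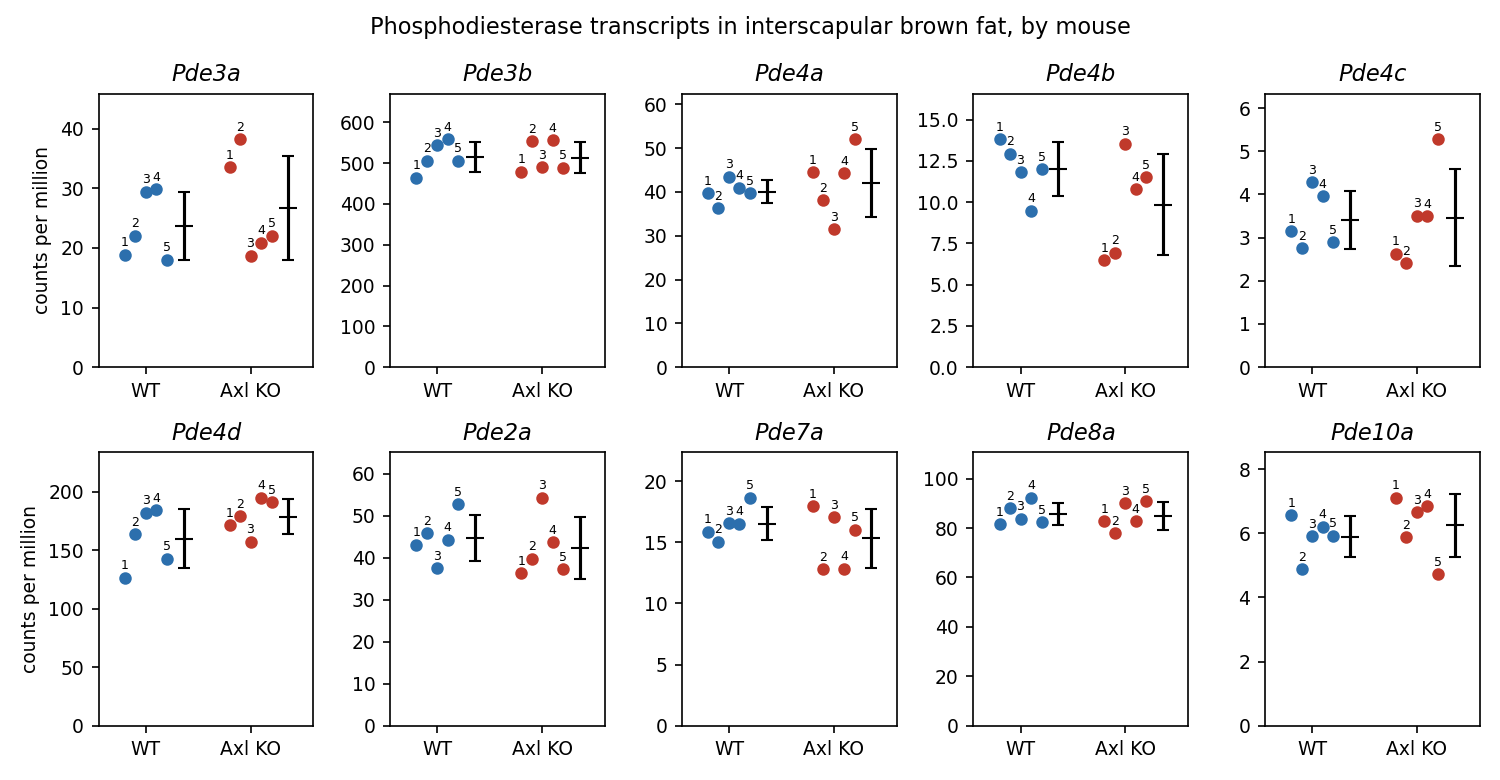
Each panel plots 1 phosphodiesterase in CPM on a linear axis from 0, with WT mice in blue, Axl KO mice in red, the replicate number above each point, and the mean with its SD beside each group (n = 5 mice each). The groups overlap in all 10 panels; in Pde3a the highest and in Pde4b the lowest 2 values are those of Axl KO replicates 1 and 2.

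No difference between Axl KO and WT iBAT was detected for any of the 10 phosphodiesterases. All 10 passed the filter of a mean above 1 CPM. After adjustment edgeR called 0 of 10 members against 0.00728% of the genes tested, and DESeq2 called 0 against 0.0655%. At an unadjusted p under 0.05 there were 0 of 10 members in edgeR, against a background of 8.38%, and 0 in DESeq2, against 6.93%. The groups overlapped for every member, and over all genes tested 1.36% had groups without overlap. Members were 5 higher and 5 lower in Axl KO mice, their median log2 fold change was 0.00434 and that of all genes tested -0.000783. Their median absolute log2 fold change was 0.08 and that of all genes tested 0.10. In whole tissue, fewer cells of a type and less RNA per cell cannot be told apart, and no value here is the level within brown adipocytes.

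The intervals give the size of difference that the data allow. For 8 of the 10 members the 95% interval of the fold change lay within 1.5-fold in either direction, as it did for 71.2% of the genes tested, and for all 10 it lay within 2-fold. Pde3a and Pde4b were the members whose interval passed 1.5-fold. Intervals were narrowest for Pde8a and Pde3b, and widest for Pde4c, Pde3a and Pde4b.

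**Figure D2:**
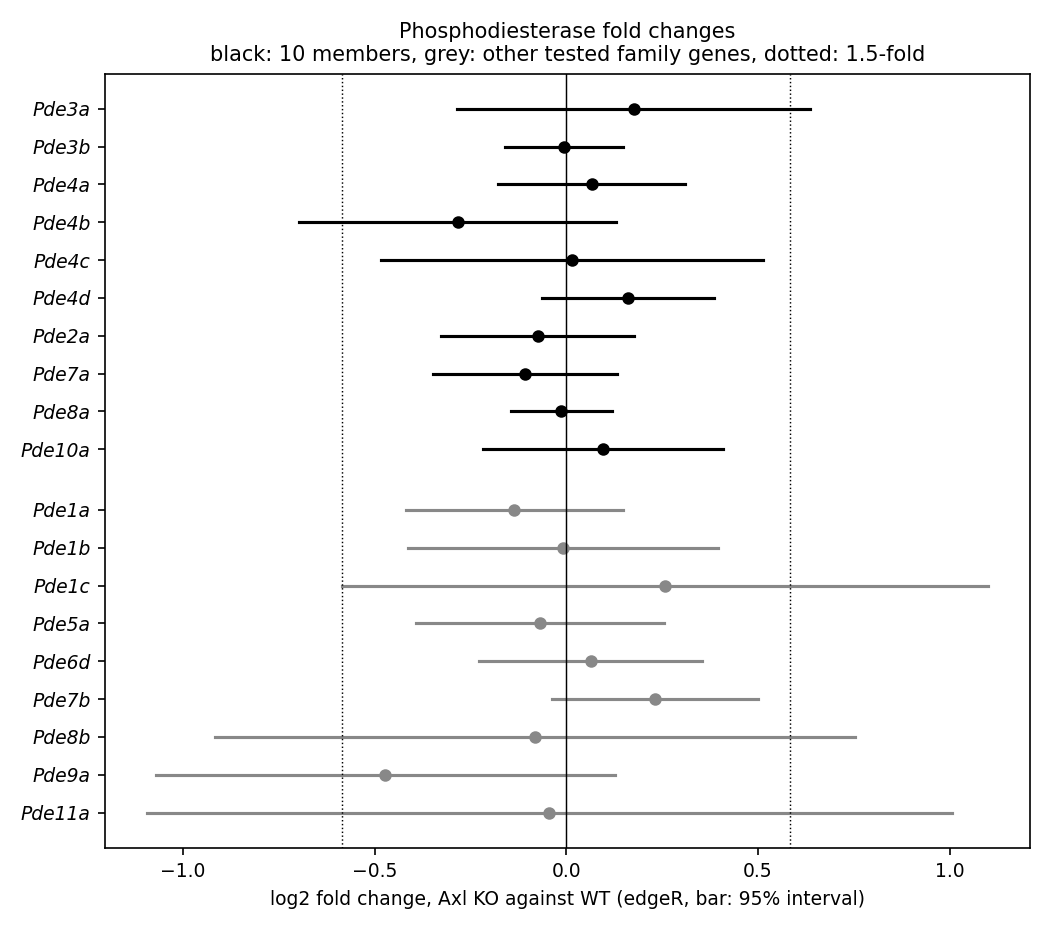
The log2 fold change of Axl KO against WT from edgeR is plotted for the 10 members in black and for the other 9 tested phosphodiesterase genes in grey, with bars for the 95% interval and dotted lines at 1.5-fold. Every interval includes 0, and those of Pde8a (-0.14 to 0.12) and Pde3b (-0.16 to 0.15) are the shortest.

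Pde3b, the main phosphodiesterase of insulin action in adipocytes, had the highest level of the members per exon length. It was measured at 479, 554, 490, 556 and 489 CPM in Axl KO replicates 1 to 5 and at 464, 506, 544, 559 and 506 CPM in WT replicates 1 to 5. Both groups span the same narrow range, with means of 514 ± 38.1 and 516 ± 37.2 CPM (SD, n = 5). On the log2 scale the fold change was -0.01 (standard error 0.07, adjusted p = 0.992, edgeR), and its 95% interval covers changes of -10.4% to 10.7% in Axl KO mice. Leaving out single mice gave log2 fold changes of -0.04 to 0.02.

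Pde3a, the other PDE3 gene, which is known from heart, vessels and platelets, was at 33.6, 38.3, 18.7, 20.9 and 22.1 CPM in Axl KO replicates 1 to 5 and at 18.9, 22.1, 29.4, 29.8 and 18.0 CPM in WT replicates 1 to 5. Axl KO replicates 1 and 2 were the highest of all mice and the other Axl KO mice lay within the WT range. This gave a log2 fold change of 0.18 (standard error 0.21, adjusted p = 0.832, edgeR). Without those 2 mice, which are the ones almost free of muscle transcripts, it was -0.20, and with the muscle list as a covariate -0.15. Leaving out single mice moved it from 0.01 without Axl KO replicate 2 to 0.29 without Axl KO replicate 3. Summed over both PDE3 genes, the level was 540 ± 40.9 CPM in Axl KO and 539 ± 42.3 CPM in WT mice (SD, n = 5).

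Among the PDE4 genes, Pde4d had the highest level per exon length. Its values were 171, 179, 157, 195 and 191 CPM in Axl KO replicates 1 to 5 and 127, 164, 182, 184 and 143 CPM in WT replicates 1 to 5. Of the 5 Axl KO mice 4 lay above the WT median, and WT replicates 1 and 5 were below every Axl KO mouse. Its log2 fold change was 0.16 (standard error 0.10, 95% interval -0.06 to 0.38), with the lowest p of the 10 members (unadjusted p = 0.143, adjusted p = 0.671, edgeR; two-sided exact permutation test, p = 0.190). It kept its sign under each alternative tried, between 0.09 without WT replicate 1 and 0.22 without WT replicate 4, and passed the threshold under none.

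Pde4b, a PDE4 gene known to be induced by cAMP and by inflammatory signals, was measured at 6.49, 6.93, 13.6, 10.8 and 11.5 CPM in Axl KO replicates 1 to 5 and at 13.8, 12.9, 11.8, 9.48 and 12.0 CPM in WT replicates 1 to 5. Axl KO replicates 1 and 2 lay below every other mouse, and the other 3 Axl KO mice overlapped the WT mice. The log2 fold change of -0.28 (standard error 0.19, unadjusted p = 0.162, adjusted p = 0.684, edgeR) was the largest in size among the members. Without Axl KO replicates 1 and 2 it was -0.01, and with the muscle list as a covariate -0.02. Over single mice left out it lay between -0.44, without Axl KO replicate 3, and -0.17, without Axl KO replicate 1.

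Pde4a was at 44.5, 38.1, 31.4, 44.3 and 52.0 CPM in Axl KO replicates 1 to 5 and at 39.7, 36.3, 43.4, 41.0 and 39.7 CPM in WT replicates 1 to 5. The Axl KO mice spread to both sides of the WT mice, with coefficients of variation of 18.4% and 6.48%. The difference was 0.07 on the log2 scale (standard error 0.11, adjusted p = 0.887, edgeR). Pde4c, the PDE4 gene with the lowest level per exon length, was at 2.63, 2.41, 3.50, 3.50 and 5.28 CPM in Axl KO and at 3.15, 2.76, 4.29, 3.96 and 2.90 CPM in WT replicates 1 to 5, from 16 to 37 counts per mouse. The difference was 0.01 on the log2 scale (standard error 0.23, adjusted p = 0.994, edgeR), with an interval from -28.5% to 42.7%. Axl KO replicates 1 and 2 had the lowest Pde4c of all mice; without them the log2 fold change was 0.25 (adjusted p = 0.904, edgeR), and with the muscle list as a covariate 0.33 (adjusted p = 0.772, edgeR). The 4 PDE4 genes together summed to 234 ± 22.2 CPM in Axl KO and 215 ± 25.4 CPM in WT mice (SD, n = 5), over overlapping ranges of 206 to 260 and 183 to 242 CPM.

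Pde2a was at 36.3, 39.8, 54.3, 43.8 and 37.3 CPM in Axl KO replicates 1 to 5 and at 43.1, 45.8, 37.5, 44.3 and 52.7 CPM in WT replicates 1 to 5. Axl KO replicate 3 and WT replicate 5 were the highest mice, 1 in each group. The log2 fold change of Pde2a was -0.07 (standard error 0.12, adjusted p = 0.878, edgeR), and 0.02 without Axl KO replicates 1 and 2. Leaving out single mice moved it from -0.18 without Axl KO replicate 3 to -0.01 without WT replicate 5. Pde8a varied least among the members, from 77.9 to 90.9 CPM in Axl KO and from 81.5 to 92.3 CPM in WT mice. For Pde8a the difference was -0.01 on the log2 scale (standard error 0.06, adjusted p = 0.973, edgeR), with an interval from -9.47% to 8.58%. Pde7a ran from 12.8 to 17.9 CPM in Axl KO and from 15.1 to 18.7 CPM in WT mice, a log2 fold change of -0.11 (standard error 0.11, adjusted p = 0.802, edgeR), which lay between -0.17 without Axl KO replicate 1 and -0.05 without Axl KO replicate 4. Pde10a, known for its high level in the striatum, was at 4.71 to 7.11 and 4.88 to 6.57 CPM, a log2 fold change of 0.10 (standard error 0.14, adjusted p = 0.873, edgeR), which lay between 0.03 without WT replicate 2 and 0.17 without Axl KO replicate 5.

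The members differed in how much they varied between mice of 1 genotype. Counting error alone gives a coefficient of variation of 1.63% for Pde3b and 4.01% for Pde8a, and the measured values were 7.41% and 7.21% for Pde3b, and 6.48% and 5.26% for Pde8a, in Axl KO and WT mice. For Pde3a the measured values of 32.5% and 23.9% were well above the 7.44% of counting error, and for Pde4b 30.9% and 13.6% stood against 11.1%. Among the 8660 genes above 10 CPM, 96.5% had a smaller SD of log2 CPM within genotype than Pde3a, and 13.9% a smaller SD than Pde8a. For Pde10a (15.6% and 10.6% against 15%) and for Pde4c in WT mice (19.8% against 20.1%) the spread was close to or below counting error.

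Levels of different genes were compared per kilobase of exon (CPM per kb), since longer transcripts collect more reads. Pde3b was highest at 56.5 ± 3.90 (SD over all 10 mice), and 5.31% of the genes tested had a higher level. Pde8a followed at 21.1 ± 1.18 and Pde4d at 14.1 ± 1.82. Then came Pde2a at 7.07 ± 1.01, with the doubt stated above, and Pde4a at 5.36 ± 0.725. The last 5 were Pde7a at 2.06 ± 0.250, Pde3a at 1.98 ± 0.556, Pde4b at 1.04 ± 0.243, Pde4c at 0.615 ± 0.157 and Pde10a at 0.472 ± 0.0617 CPM per kb. Of the summed level of the 10 genes, Pde3b held 48.3 to 54.0% in each mouse and both PDE3 genes 49.9 to 56.7%, whereas the 4 PDE4 genes held 17.4 to 22.3%. These shares depend on the length used: per kilobase of the longest transcript, the PDE4 genes held 28.4 to 35.1% and the PDE3 genes 44.1 to 50.5%.

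**Figure D3:**
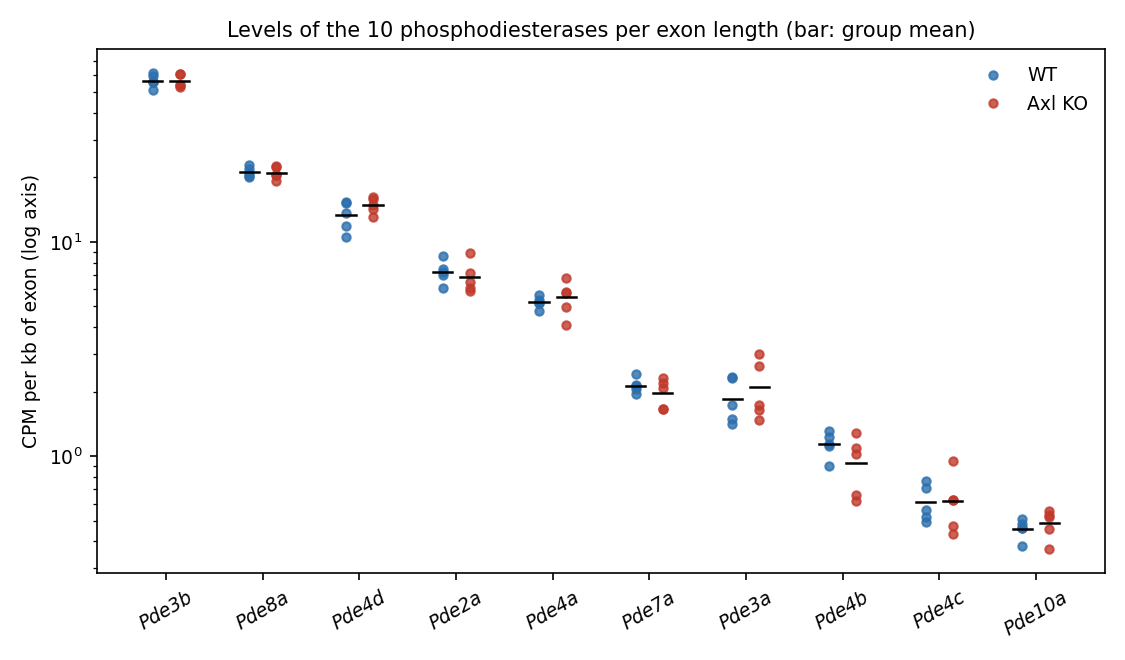
The level of each phosphodiesterase in CPM per kb of exon is plotted on a log axis for every WT (blue) and Axl KO (red) mouse, with a bar at each group mean and the genes ordered by their mean over all mice. The order falls from Pde3b (56.5) to Pde10a (0.472), and the colours overlap for each gene.

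Neighbours in this order were compared within the mouse by a two-sided exact sign-flip permutation test, adjusted over 9 neighbours. Of the 9 steps, 8 had an adjusted p under 0.05. The order was set from these same levels, so each p describes only how steady a step was from mouse to mouse. It does not cover the choice of length, and steps to or from Pde2a carry the doubt about its counts. Pde3b was higher than Pde8a in 10 of 10 mice, by 2.68-fold (exact p = 0.00195, adjusted p = 0.00293). Pde7a and Pde3a did not differ beyond their spread (Pde7a higher in 6 of 10 mice, exact p = 0.527, adjusted p = 0.527), and their order turned in Axl KO mice alone. The order also depends on the length used: with the longest transcript in place of all exons, Pde4d stood above Pde8a in 10 of 10 mice (40.2 against 22.4) and Pde4b above Pde3a in 7 of 10 by level (2.54 against 2.05 on average). Pde4d and Pde4b are annotated with 20 and 13 transcripts. Pde3b was first with either length.

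**Figure D4:**
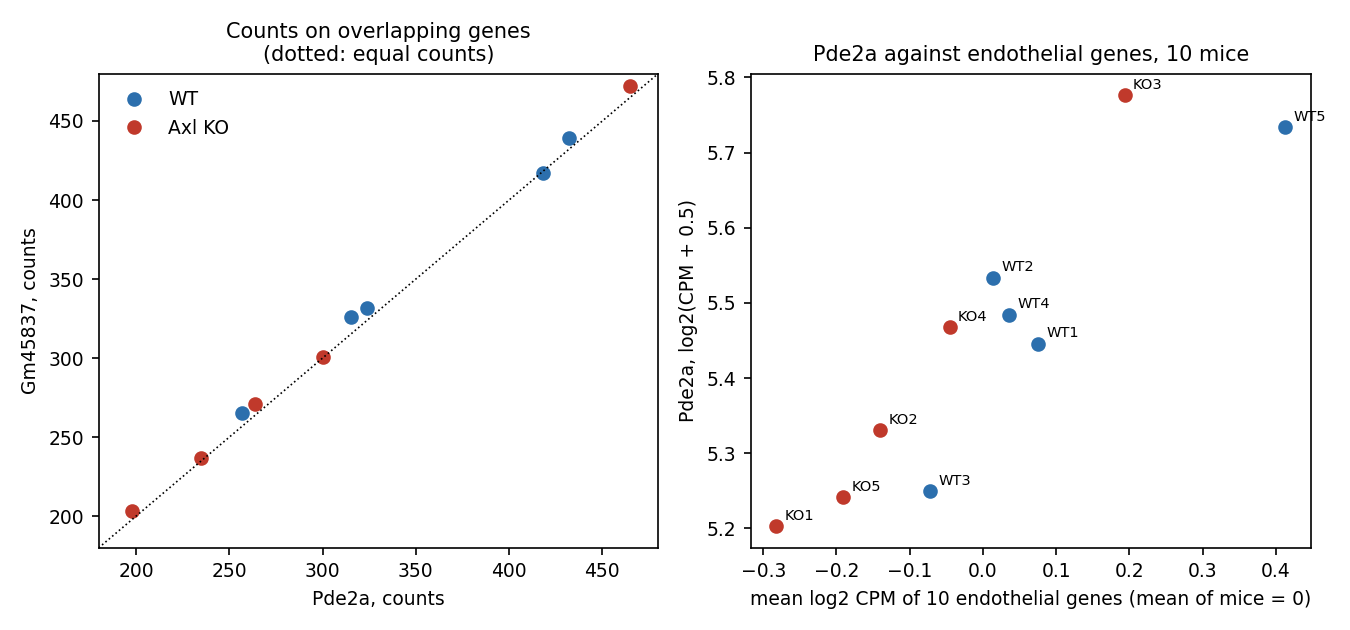
Left, the counts of Pde2a and of the overlapping gene Gm45837 in each mouse lie along the dotted line of equal counts, with differences of -1 to 11. Right, log2(CPM + 0.5) of Pde2a is plotted against the mean log2 CPM of 10 endothelial genes for each mouse (WT blue, Axl KO red); Axl KO replicate 1 is lowest in both and Axl KO replicate 3 and WT replicate 5 are highest in both.

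Across the 10 mice the member that followed a cell type most closely was Pde2a, which varied together with endothelial genes. Log2 CPM of each member was correlated with the mean log2 CPM of 9 cell type lists, 90 pairs in all, by 100000 permutations, and 1 pair had an adjusted p under 0.05. Pde2a and the endothelial list gave a Pearson r of 0.904 over the 10 mice (permutation p = 0.00029, adjusted p = 0.0261) and a Spearman rho of 0.891 (permutation p = 0.00122, adjusted p = 0.0907). Without Axl KO replicate 1 and WT replicate 5, the mice farthest from the median, r was 0.895, and after centring within genotype it was 0.935 (permutation p = 0.00019, adjusted p = 0.0171). That permutation moved centred values freely over both genotypes, with no allowance for the group means removed. Its p may therefore be too small. All 10 endothelial markers were measured, with a summed level of 564 to 717 CPM in Axl KO and 585 to 825 CPM in WT mice. Counts shared with Gm45837 enter these values too. All mice came from 1 labelled experiment, and no batch is named by which the relation could be split.

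Pde3a and Pde4b tended to opposite sides from mouse to mouse. Of the 45 pairs of members theirs had the largest correlation, with r = -0.855 (permutation p = 0.00151, adjusted p = 0.0679) and rho = -0.770 (permutation p = 0.0131, adjusted p = 0.36). Neither passed the threshold after adjustment over the pairs, whereas after centring within genotype r was -0.875 (permutation p = 0.0009, adjusted p = 0.0405). The limit stated above for permutation after centring holds here too, so this pass is uncertain. Without Axl KO replicates 1 and 2, which are highest in Pde3a, r was -0.649. The same mice hold 16.7 and 68.6 CPM of summed muscle transcripts, and the part of muscle in the pattern was not tested. The muscle list is 1 of the 9 lists correlated over all mice, and without centring none of its 10 pairs had an adjusted p under 0.05 there. Since 2 mice stand apart in it, its values are given over the other 8. Over these 8 mice the muscle list gave r = 0.516 with Pde3a (exact permutation p = 0.205), -0.05 with Pde4b (exact permutation p = 0.914) and 0.658 with Pde4c (exact permutation p = 0.0792), with adjusted p of 0.682, 0.958 and 0.682 over the 10 members. The corresponding Spearman rho were 0.452 (exact permutation p = 0.267), 0.05 (exact permutation p = 0.935) and 0.690 (exact permutation p = 0.0694), with adjusted p of 0.669, 0.977 and 0.415, and r after leaving out 2 more mice was 0.397, -0.40 and 0.721.

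**Figure D5:**
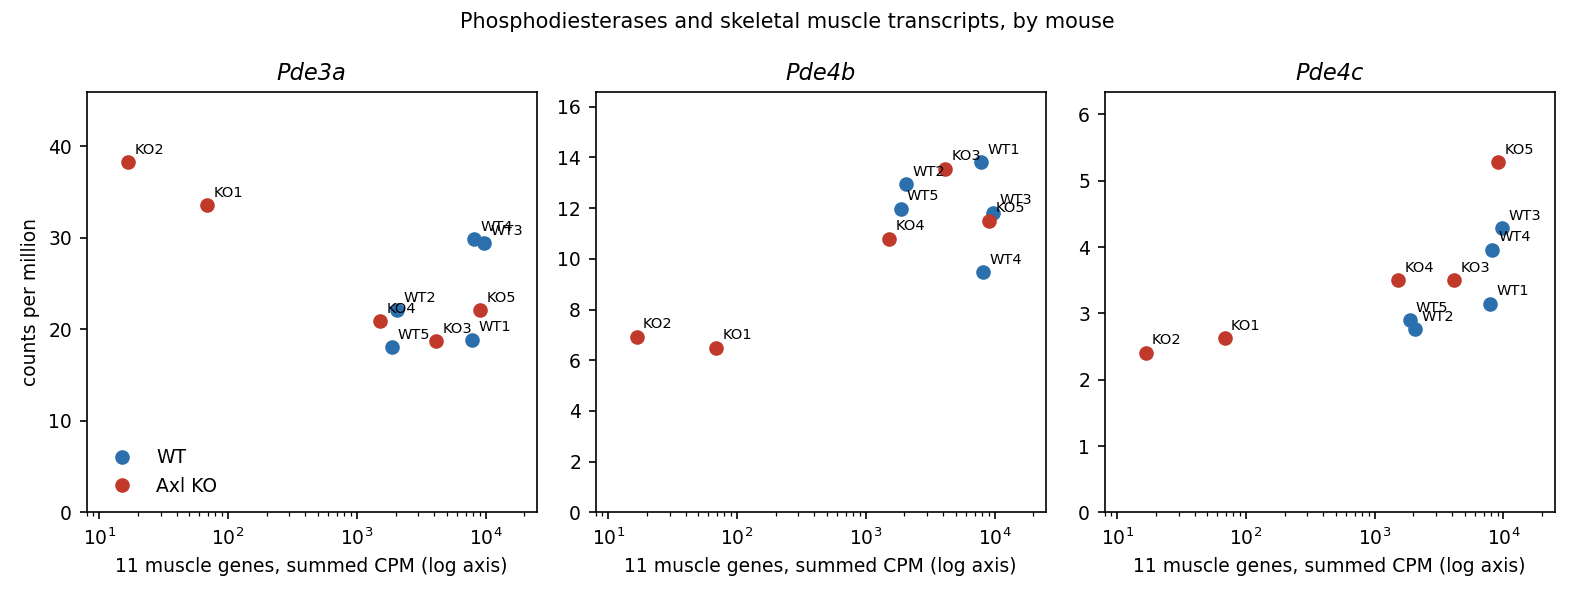
CPM of Pde3a, Pde4b and Pde4c (linear axes from 0) is plotted against the summed CPM of 11 skeletal muscle genes (log axis) for each WT (blue) and Axl KO (red) mouse. Axl KO replicates 1 and 2, at 68.6 and 16.7 CPM of muscle transcripts, stand apart from the other 8 mice at 1521 to 9738 CPM, with the highest Pde3a and the lowest Pde4b and Pde4c.

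The genes whose pattern across the mice was most like that of a member were ranked by Pearson r of log2 CPM centred within genotype, over 10 mice and the 8660 genes above 10 CPM. For Pde3b they were Enc1 (r = 0.982), Brpf3 and Bbof1, and for Pde3a Pcf11 (0.959), Myo19 and Bmt2. For Pde4a they were Erlec1 (0.964), Slc39a14 and Syt11, for Pde4b Asrgl1 (0.946), Mtmr2 and Atp5c1, for Pde4c Ptp4a3 (0.945), Ap4b1 and Mphosph10, and for Pde4d Map4k4 (0.962), Zfp654 and Ptk2b. Pde2a had Gm45837 first (0.997), which shares its exons, and then Cd93, a gene of endothelial and myeloid cells, at 0.965 and Mapre1 at 0.958. For Pde7a they were Ascc3 (0.973), Ppp1r7 and Cmas, for Pde8a Epm2a (0.929), Smim13 and Cndp2, and for Pde10a Rsbn1l (0.932), Aptx and Mrtfb. Each is the best match among many genes over few mice and is given as a description.

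The rest of the phosphodiesterase superfamily gave no call either. Of the 14 other genes 9 were tested, 0 had an adjusted p under 0.05 and 0 an unadjusted p under 0.05. The PDE1 genes encode enzymes activated by calcium and calmodulin. Pde1a was at 43.3 ± 6.98 CPM in Axl KO and 47.7 ± 8.01 CPM in WT mice (log2 fold change -0.13, standard error 0.13), Pde1b at 5.87 ± 1.26 and 5.93 ± 1.15 CPM (-0.01, 0.19) and Pde1c at 1.90 ± 1.2 and 1.5 ± 0.596 CPM (0.26, 0.39; SD, n = 5). Pde5a and Pde9a, whose enzymes are specific for cGMP, had log2 fold changes of -0.07 and -0.47 (standard errors 0.15 and 0.28). Pde7b and Pde8b, the paralogs of Pde7a and Pde8a, had log2 fold changes of 0.23 (standard error 0.12, unadjusted p = 0.0862, adjusted p = 0.627, edgeR) and -0.08 (0.38), and Pde11a and Pde6d -0.04 (0.48) and 0.06 (0.13). The photoreceptor genes Pde6a, Pde6b and Pde6c had 0 counts in every mouse, which allows a level of up to 0.313 to 0.552 CPM (3 counts per library), Pde6h had 1 count in all and Pde6g 1 to 7 counts per mouse.

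Genes that act before and after the phosphodiesterases were counted by lists, and edgeR called none of their genes after adjustment. At an unadjusted p under 0.05, which 8.38% of all genes tested reached, there were 3 of 21 genes of cAMP production. Adcy3, an adenylyl cyclase, was at 222 ± 81.3 CPM in Axl KO and 134 ± 13.9 CPM in WT mice (log2 fold change 0.73, standard error 0.19, adjusted p = 0.572, edgeR). The groups did not overlap for Adcy3, as for 1.36% of all genes tested. Gnai2, an inhibitory G protein subunit, and Tshr, the thyrotropin receptor, had log2 fold changes of -0.30 and 0.41. Of 11 cAMP effectors there were 2, the cAMP-regulated exchange factors Rapgef3 and Rapgef4 at -0.29 and 0.88. Rapgef4 had 8 to 26 counts per mouse. Of 11 CREB and ATF factors there was 1, Creb5 at -0.57. Of the 29 genes that anchor or bind phosphodiesterases there were 2: Akap5, an anchoring protein of protein kinase A, at -0.81, and Abhd15, a partner of PDE3B in adipocytes, at 0.15 with 60.7 ± 4.58 against 54.8 ± 2.52 CPM (SD, n = 5). None of the 18 PI3K and AKT genes was among them, with 10 higher and 8 lower and a median log2 fold change of 0.04 (8 higher, 10 lower and -0.0040 without Axl KO replicates 1 and 2). Adjusted p was 0.572 or 0.580 for each gene named here.

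Genes of cGMP production and action were mostly lower in Axl KO mice, 10 of 12 against 50.3% of all genes tested, with a median log2 fold change of -0.25. The muscle-poor mice were lowest on this list: its mean log2 CPM, relative to the mean of all mice, was -0.22 and -0.26 in Axl KO replicates 1 and 2, between -0.13 and 0.03 in the other Axl KO mice and between 0.02 and 0.25 in WT mice. Without these 2 mice 11 of 12 genes were lower, the median was -0.17, and 0 of 12 had an unadjusted p under 0.05. Of the 13766 genes tested without them, 49.7% were lower and 812 were at an unadjusted p under 0.05. With all mice, 2 of 12 were at an unadjusted p under 0.05, which 8.38% of all genes tested reached. They were Npr2, a natriuretic peptide receptor, at -0.24 and Mrvi1, a substrate of the cGMP-dependent kinase, at -0.31. The groups did not overlap for Mrvi1, as for 1.36% of all genes tested. The endothelial and the smooth muscle and pericyte markers, which share cell types with this list, were lower for 8 of 10 genes each. Their medians were -0.15 and -0.10, and -0.04 and -0.15 without the muscle-poor mice. Whether these cell types bear on the cGMP list was not tested. Of 13 cAMP-responsive transcripts, 8 were higher (6 without the muscle-poor mice), and 3 were at an unadjusted p under 0.05. Of all genes tested, 49.7% were higher and 8.38% were at an unadjusted p under 0.05. Dio2, the deiodinase that activates thyroid hormone, was at 99.8 ± 29.0 against 53.9 ± 15.5 CPM (log2 fold change 0.89), without overlap, Ucp1, the uncoupling protein of brown fat, at 5572 ± 1200 against 4128 ± 866 CPM (0.43) and Fos, an immediate early gene, at 0.851 ± 0.607 against 2.73 ± 1.08 CPM (-1.74; SD, n = 5). Fos had 2 to 32 counts per mouse, with 10 or fewer in each Axl KO mouse. The genes named in this paragraph had an adjusted p of 0.572 in edgeR, and DESeq2 called 1 of them, Dio2.

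Markers of the cells that make up the tissue were counted in the same way. Of all genes tested, 49.7% were higher and 50.3% lower, 8.38% were at an unadjusted p under 0.05 and 1.36% had groups without overlap. Of the brown adipocyte markers 9 of 10 were higher in Axl KO mice, and 5 were at an unadjusted p under 0.05, with Cox8b, a cytochrome c oxidase subunit, at a log2 fold change of 0.24 and Elovl3, a fatty acid elongase, at 1.67 besides Dio2 and Ucp1. The fifth was Cox7a1, named here after its values were seen, at 0.14. The groups did not overlap for Dio2 and Cox8b, and they overlapped for Ucp1, Cox7a1 and Elovl3. Elovl3 ran from 25.8 to 164 CPM in Axl KO and from 5.68 to 34.3 CPM in WT mice, with WT replicate 3 lowest. Without the muscle-poor mice, 8 of 10 brown adipocyte markers were higher and 4 were at an unadjusted p under 0.05, as were 812 of all 13766 genes then tested. All 10 fibroblast markers were lower, with Col1a1 and Col1a2 at -0.43 and -0.40 and a list median of -0.24 (-0.35 and 9 of 10 lower without the muscle-poor mice). The 11 muscle markers were lower too, with a median of -1.04, which was -0.31 without Axl KO replicates 1 and 2. Cldn5 and Egfl7 were at -0.73 and -0.31 among endothelial markers and Notch3 at -0.40 among smooth muscle and pericyte markers. Among Schwann and nerve markers Cdh19 was at -0.28, and its groups did not overlap either. None of 9 macrophage, 8 general adipocyte, 5 erythroid and 2 tested B and T cell markers was at an unadjusted p under 0.05.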

How the data were processed

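RNA of whole iBAT from 10 mice was sequenced with 1 library per mouse. The authors deposited 1 table per mouse with raw read counts per Ensembl gene, not normalized. The study's methods name Trim Galore, hisat2 and GRCm38, whereas the submitters' processing notes name bcl2fastq, Trimmomatic 0.36, STAR 2.6.1c, DESeq2 and GRCm38.p5. The counting tool and strand setting are not given in the sources used here, so overlapping genes are uncertain. The records name polyA RNA and the methods rRNA depletion. Identifiers were matched to symbols and exons with GENCODE M21 (41163 of 41249).

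Counts were tested with edgeR 4.0.16 in R 4.3.3 (TMM, quasi-likelihood, genotype only) over 13739 genes with a mean above 1 CPM, and adjusted by the Benjamini-Hochberg method. The fit was tested on simulated data, but changes as small as those of the members were not simulated. Its power to detect such changes is not known. CPM values are TMM-normalized. Logs used a prior of 0.5 CPM. DESeq2 1.42.0 was an alternative, beside RLE size factors, filterByExpr, no filter, each mouse left out, a replicate block and a muscle covariate. The lowest chi-square per gene between a pair of mice was 5.46, so each mouse was counted as 1 replicate. Floors cover counting error only and use library totals without TMM. Whether the mice came from separate litters is not given, so p-values measure the spread between these samples.

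The members were not chosen by their values, but they and the 18 further lists were chosen with earlier results of these data known. Counts over these lists are therefore descriptions. Named genes are Axl, the members, other phosphodiesterases above 1 CPM, up to 4 genes per list with the lowest unadjusted p under 0.05, and the 3 genes most like each member. Gm45837 was named after its values were seen.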

Additional observations from a re-analysis of the deposited data

Results flagged for a closer look

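In groups of 5, a mouse was singled out where its gap to the nearest other mouse exceeded 0.71 of the group's range (Dixon's 95% value). Of 82 groups checked 7 met this, where chance gives about 4.1, and none belongs to the 10 phosphodiesterases. Among the other phosphodiesterases these were Pde1c in Axl KO replicate 5 (3.96 CPM, nearest mouse 1.90), Pde11a in Axl KO replicate 1 (4.02 CPM, nearest 1.32) and, as the lowest, Pde9a in WT replicate 2 (1.59 CPM, nearest 2.19), from 21, 26 and 15 counts. In the pathway and marker lists, Axl KO replicate 5 was highest for Adcy3 (362 CPM, nearest 209) and Ucp1 (7648 CPM, nearest 5582), and WT replicate 5 was highest for Cldn5 (30.3 CPM, nearest 20.9). Axl was lowest in Axl KO replicate 4 (0.438 CPM, 3 counts, nearest 1.70).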

How the results depend on the processing

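The main limits are 5 mice per genotype, 16 to 57 counts per mouse for Pde4c and Pde10a, whole tissue with variable muscle, and unknown strand and overlap handling. The 10 phosphodiesterases gave 0 calls under each alternative run, with adjusted p of 0.291 or more wherever DESeq2 or edgeR gave one. DESeq2 without Axl KO replicate 3 gave no adjusted p for some members, Pde4b, Pde4c and Pde7a among them. These could not be called in that fit. The number of genes called was 9 with DESeq2 (1 in edgeR); with single mice left out it was 1 in every edgeR fit, and in DESeq2 it ranged from 1 to 234 genes, the latter without Axl KO replicate 3. Leaving out both muscle-poor mice, Axl KO replicates 1 and 2, which was chosen after the data were seen, gave 1 and 2 genes in edgeR and DESeq2. DESeq2 called 1 cAMP-responsive transcript and 1 brown adipocyte marker, Dio2 in both; with single mice left out, also chosen later, its counts ran from 0 to 2 for cAMP production, 0 to 1 for cAMP-responsive transcripts, 0 to 3 for brown adipocyte, 0 to 2 for general adipocyte and 0 to 1 for smooth muscle and pericyte genes.

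Uncalled log2 fold changes changed sign as follows; the cause was not tested. With single mice left out they ran from -0.042 to 0.024 for Pde3b, -0.020 to 0.16 for Pde4a, -0.16 to 0.12 for Pde4c, -0.038 to 0.017 for Pde8a, -0.091 to 0.11 for Pde1b, -0.14 to 0.46 for Pde1c, -0.18 to 0.023 for Pde5a, -0.0055 to 0.14 for Pde6d, -0.44 to 0.087 for Pde8b and -0.68 to 0.18 for Pde11a. Without the muscle-poor mice they were -0.20 for Pde3a (-0.21 in DESeq2), 0.024 for Pde2a (0.020) and 0.039 for Pde8a (0.038). With the muscle covariate they were -0.15 for Pde3a, 0.049 for Pde8a, 0.070 for Pde1b, 0.072 for Pde5a and 0.37 for Pde8b. Centring within genotype gave 2 pairs of a member and a cell type list past the threshold in place of 1, the second being Pde4c with the muscle list, and Spearman's rho gave 0. The permutation p after centring may be too small, as stated above. The second pair includes the muscle-poor mice; over the other 8, uncentred, r was 0.658 (exact permutation p = 0.0792, adjusted p = 0.682). All 9 steps in the order of levels were kept in WT mice, 8 in Axl KO mice and 7 with the longest transcript; the shares with that length, and the list medians without the muscle-poor mice, were added after the data were seen.

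The sources used here do not say that the replicate numbers pair the mice. Deviations of same-numbered mice correlated at -0.204, 0.481, 0.0749, 0.0253 and -0.413. For replicate 2 alone, the WT mouse most like the Axl KO mouse had the same number. Such a check cannot exclude pairing, for example by litter. With the number as a replicate block, edgeR called 1 gene and 0 phosphodiesterases, and Pde4c had a log2 fold change of -0.0085.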
